A study of Mus musculus with 3 samples.

Results

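Csmd1, Csmd2 and Csmd3 encode very large single-pass membrane proteins whose extracellular part is built from alternating CUB and sushi domains. The sushi domain is the repeat of the regulators of complement, and Csmd1 is known as a complement inhibitor that is expressed in the brain, where complement marks synapses for removal. Nkx2.2, a homeodomain transcription factor of the oligodendrocyte lineage, binds DNA in progenitors and takes part in their differentiation. Its occupancy at these 3 genes was taken from a deposited table of Nkx2.2 regions. The regions were chosen by the authors' calls and gene assignments: every region whose list of assigned genes holds one of the 3 names was included, which gave 35 of 37271 regions. Of these, 29 were assigned to Csmd1, 6 to Csmd3 and 0 to Csmd2. Because calls made from the signal chose them, the number of regions, their calls and their signal are given as a description and without a test.

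Chromatin immunoprecipitation and sequencing with a monoclonal Nkx2.2 antibody was done on oligodendrocyte progenitor cells (OPC) and on oligodendrocytes made from them in culture (OL). The C57BL/6 progenitors were selected with a PDGFRA antibody from dissociated cortex at postnatal day 7 and grown in serum-free medium with 10 ng/mL PDGF-AA, 1 ng/mL NT-3 and 10 ng/mL CNTF. For OL, PDGF-AA was taken away and T3, a thyroid hormone, was given at 40 ng/mL for 48 h. Each state has 1 library, listed with 1.5e7 cells, and an input library made from both states was not analysed here. No perturbation or second antibody is among the samples, whether cells of several animals were pooled is not stated, and occupancy values do not allow the labelled cell types to be checked by marker expression. With 1 library per state no difference between OPC and OL has a replicate check, and no p-value is given. Fewer cells of a type with a bound site and less binding per cell cannot be told apart.

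Signal is the authors' average value over a region, and the log2 ratio is log2((OL + 1)/(OPC + 1)), which understates the difference at weak regions. Across the table the average was either 0 or at least 1: in the OPC library 2253 regions stood at 0, 3018 at exactly 1 and 0 in between. An average of this kind does not fall below 1 where any signal is present, so low values of different regions are compressed. The depth of the libraries is unknown. Of all regions 38.6% had an OPC call and 85.3% an OL call, and the median log2 ratio was 0.74.

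Csmd1 carried OL calls from its start to 1585 kb into the gene, and far fewer OPC calls. Of its 29 regions, the OL library had a call at 27 and the OPC library at 7. As shares these are 93.1% (exact Clopper-Pearson 95% interval 77.2 to 99.2%) and 24.1% (10.3 to 43.5%), where the intervals cover counting error over regions only. By state, 22 were called in OL only against 61.4% of all regions, 5 in both against 23.8%, and 2 in OPC only against 14.7%. The average signal of the Csmd1 regions ran from 1.00 to 18.9 in OL with a median of 5.88, and from 0 to 9.05 in OPC with a median of 2.00. The median over all regions was 5 in OL and 3 in OPC.

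The median log2 ratio of the Csmd1 regions was 1.09. At 16 of the 29 regions the ratio reached 1 or more, or 55.2%, beside 37.5% of all regions, and at 1 it was -1 or less, or 3.45%, beside 7.03%. Which regions were called fixes part of this, since regions called in OL only lean toward OL by selection. At the 22 OL-only regions of Csmd1 the median was 1.38, against 1.12 at all OL-only regions of the table. At the 5 regions called in both it was 0.37, against 0.24.

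**Figure D1:**
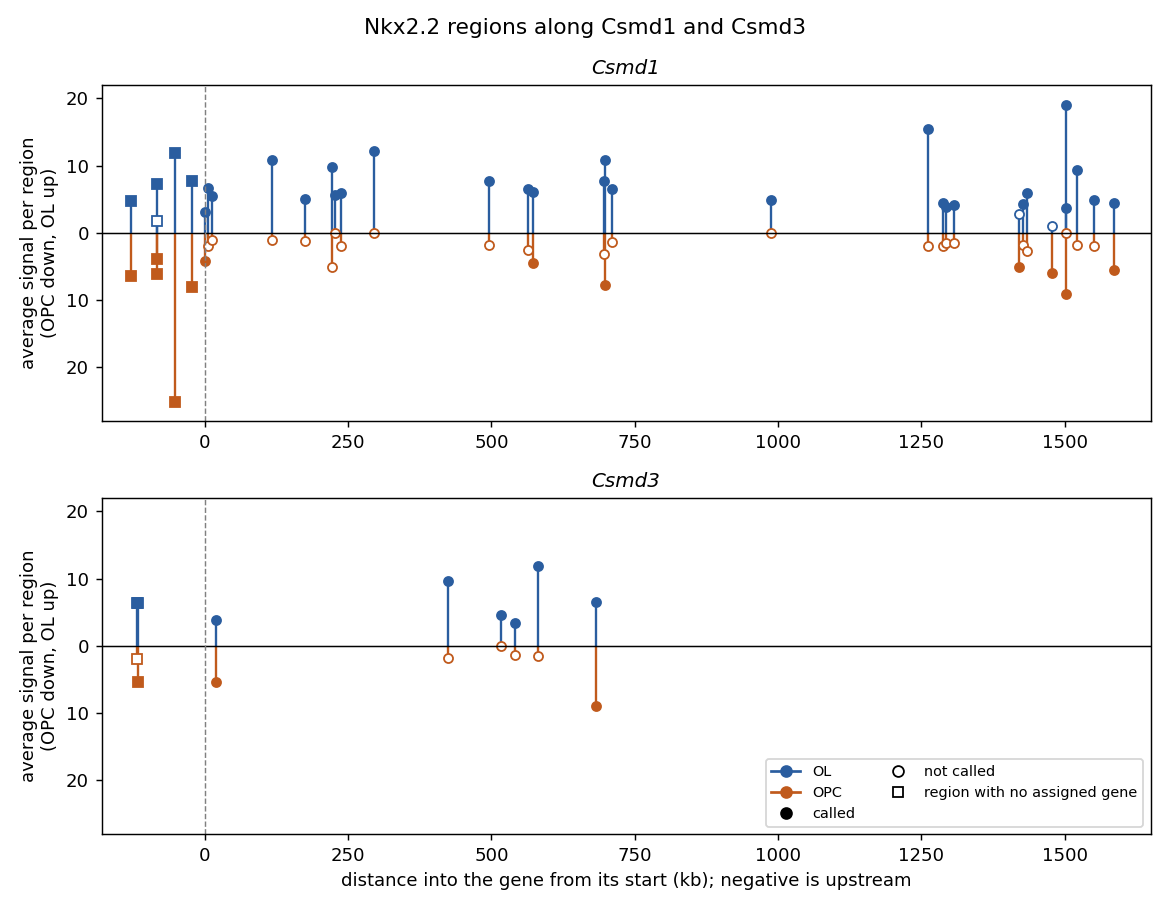
Average signal of each region of Csmd1 (top) and Csmd3 (bottom) against its distance from the gene start in kb, with OL drawn upward and OPC downward. Filled markers are called regions, open markers regions not called in that library, and squares the regions upstream of the start that have no assigned gene. Regions called in OL run through the whole of Csmd1, while its OPC calls lie at the start, in the middle and in the far part.

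The strongest Csmd1 region in both libraries lay deep in the gene. This region, chr8:16033108-16033800, is 1501931 bp into Csmd1 and had 9.05 in OPC and 18.9 in OL, with highest values of 30 and 62. It was called in both and stood at percentile 95.5 of all regions in OPC and 98.6 in OL. Only 507 bp away, the region chr8:16032180-16032601 was listed at 0 in OPC and had 3.67 in OL. The weaker of these neighbours was called in OL alone.

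Several Csmd1 regions were high in OL with little or no OPC signal. The largest log2 ratio was at chr8:17240587-17241337, 294423 bp into the gene, listed at 0 in OPC and with 12.1 in OL. No fold is given against a value of 0, and its log2 ratio of 3.71 rests on the pseudocount. A region 1261725 bp in, chr8:16273271-16274049, had 2.00 in OPC and 15.5 in OL. At chr8:17417662-17418224, 117442 bp in, the values were 1.00 and 10.8. In all, 4 Csmd1 regions were listed at 0 in OPC, and the number listed at 0 in OL was 0.

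Of the 29 Csmd1 regions 4 had more signal in OPC than in OL, beside 8369 of all 37271 regions. More OL signal was seen at 86.2% of the Csmd1 regions, beside 77.4% of all regions. The smallest log2 ratio, -1.80, was at chr8:16057459-16058083, 1477614 bp into the gene, with 5.95 in OPC and 1.00 in OL. It lies 23.7 kb from the strongest OL region of the gene and was called in OPC only. The other OPC-only region, chr8:16114835-16115606, had 5 and 2.85. Nearby regions of one gene thus carried opposite ratios, and a single value for Csmd1 hides them.

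The region on the start of Csmd1 did not share the OL lean of the gene body. It was chr8:17535012-17535788, with its middle at -15 bp from the deposited start, and it was the only one of the 35 that the authors gave a CpG island and a promoter. Its values were 4.25 in OPC and 3.09 in OL, it was called in both, and its log2 ratio was -0.36. The next region inward, at 5750 bp, had 2.00 in OPC and 6.63 in OL and was called in OL only. The farthest region, chr8:15949631-15950163 at 1585488 bp, again had slightly more OPC signal, with 5.59 and 4.41 and calls in both.

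Along Csmd1 the regions were unevenly spaced. Gaps between neighbours ran from 0.507 to 278 kb with a median of 24.6 kb, and 6 were over 100 kb. The span from the start to the farthest region was cut into 3 equal parts. The part nearest the start held 10 regions with 10 OL calls and 1 OPC call, and its median log2 ratio was 1.54. The middle part held 6, with 6 OL calls, 2 OPC calls and a median of 1.09. The part farthest from the start held 13, with 11 OL calls, 4 OPC calls and a median of 0.95. It held the strongest OL region and both OPC-only regions. Of all regions 85.3% had an OL call and 38.6% an OPC call, and their median log2 ratio was 0.74. The cut was chosen with the values known, and the order of the 3 medians has no test.

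Just outside the assigned set, a group of regions upstream of Csmd1 had a different balance. Upstream assignments in the table end at 10534 bp from a start, so regions farther out carry no gene name. Between the Csmd1 start and the next named region, 620 kb upstream, lay 5 such regions, from 23.0 to 129 kb upstream. OPC calls were made at all 5 and OL calls at 4, where 38.6% and 85.3% of all regions had such calls. The median log2 ratio of the 5 was -0.37. The strongest, chr8:17587254-17588075 at 52.3 kb upstream, had 25.2 in OPC and 11.8 in OL and stood at percentile 99.7 of all regions in OPC. Its OPC signal was above that of every region inside Csmd1. Beside it, the regions at 23.0 and 82.9 kb had 8.00 and 6.15 in OPC, and 7.75 and 7.27 in OL. Beyond the farthest Csmd1 region, 3 regions with no gene name lay before the next named one. They had 1 OPC call, 2 OL calls and a median log2 ratio of 0.64. Whether any region on either side acts on Csmd1 was not measured.

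Csmd3, a paralogue linked to dendrite growth, had a sparser set. All 6 regions lay in the gene. OL calls were made at all 6, beside 85.3% of all regions, and OPC calls at 2, or 33.3%, beside 38.6%. OPC signal ran from 0 to 9 with a median of 1.68, and OL signal from 3.43 to 11.8 with a median of 5.54. The 4 OL-only regions had log2 ratios from 0.92 to 2.48, while both regions called in OPC and OL were below 0, and 0 were called in OPC only. The median of 1.42 over the 6 regions lies between the 2 middle ratios of 0.92 and 1.92.

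The region nearest the deposited start of Csmd3, chr15:48485789-48486447 at 19340 bp into the gene, had 5.31 in OPC and 3.82 in OL. The farthest, chr15:47822492-47823008 at 682708 bp, had 9 and 6.5, with highest values of 25 and 12. Between them, chr15:47923876-47924388 at 581326 bp had the most OL signal, 11.8, with 1.54 in OPC. A region at 423655 bp had 9.67 in OL and 1.81 in OPC, one at 541665 bp had 3.43 and 1.33, and the largest log2 ratio, 2.48, was at 517214 bp, where OPC was listed at 0 and OL had 4.58. No region was assigned for 404 kb between those at 423655 and 19340 bp.

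None of the 6 Csmd3 regions held a CpG island or a promoter. Upstream of the deposited start, the nearest region with no gene name lay at 117 kb, chr15:48621549-48622439. It was given a CpG island and was called in both, with 5.39 in OPC and 6.35 in OL. A second, at 119 kb upstream, had 2.00 and 6.42 and was called in OL only. Whether these belong to a longer form of Csmd3 could not be read from the table, which gives 1 start for the gene.

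Of the 35 regions 6 had more OPC than OL signal, beside 8369 of all 37271 regions. More OL signal was seen at 82.9% of the 35, beside 77.4% of all regions. Of the 6, 4 were the nearest and the farthest region of Csmd1 and of Csmd3. These 4 were called in both libraries, with log2 ratios of -0.36 and -0.28 in Csmd1 and of -0.39 and -0.42 in Csmd3. The other two were the OPC-only regions of Csmd1, which lie between its ends and lean further to OPC. At 3 further regions between the ends of Csmd1, also called in both, the ratio was above 0. Neither the call alone nor the sign alone thus sets the ends of that gene apart. Among its 5 regions called in both, only the 2 at the ends were below 0. This was noticed in the values and has no test. Regions called in both are joined from 2 intervals, and highest values at these 4 were 8 and 7, 11 and 9, 12 and 10, and 25 and 12, each pair OPC first.

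**Figure D2:**
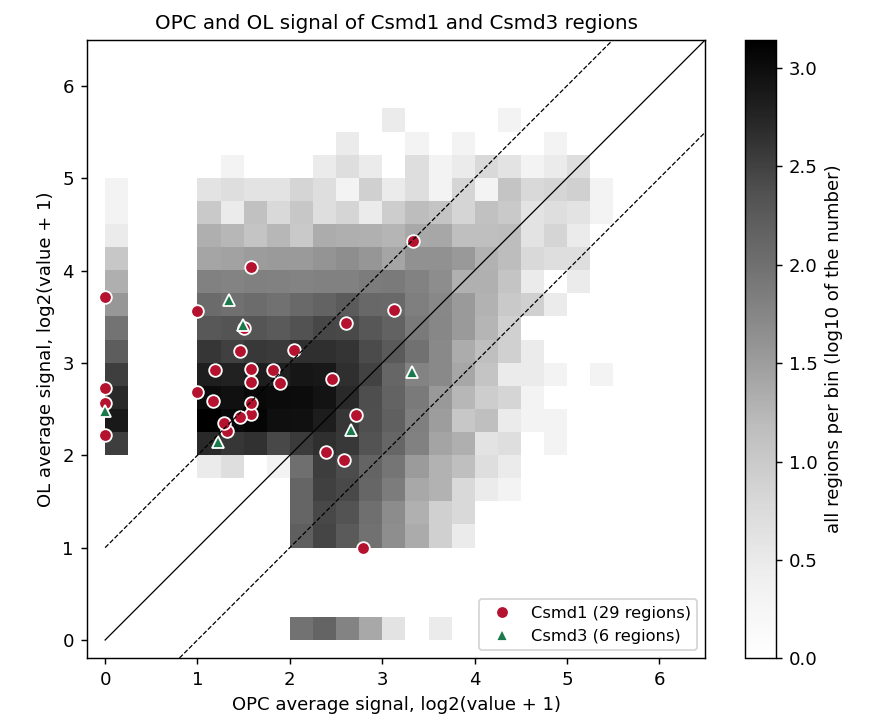
OPC against OL average signal on a log2(value + 1) scale for the 29 Csmd1 regions (circles) and 6 Csmd3 regions (triangles), over the density of all 37271 regions in grey. The solid line marks equal signal and the dashed lines a log2 ratio of 1 and -1, and the empty bands show that no average lies between 0 and 1. Of the 35 points 19 lie at or above the upper dashed line and 1 below the lower one.

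Csmd2 was named in 0 regions, under its own symbol or its synonym Gm139, although the chromosome 4 segment around it held regions. RefSeq's gene order in assembly GRCm38.p6 places the genes Hmgb4 and Hmgb4os inside Csmd2. The region of Hmgb4, a gene for a high mobility group protein, was chr4:127938276-127938792, listed at 0 in OPC and with 3.93 in OL. It was also assigned to 4930546G22Rik, an older name of Hmgb4os. Within 300 kb on either side of it the table held 13 regions, itself included, of which 11 had no assigned gene. The window was chosen with the values known, and the Hmgb4 region is the only one of the 13 that gene order puts inside Csmd2.

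Of the 11 regions without a gene, the OPC library had calls at 4, or 36.4%, beside 38.6% of all regions. The OL library had calls at 8, or 72.7%, beside 85.3%. Their median log2 ratio was 0.69, beside 0.74 for all regions. A group of 6 lay from 296 to 258 kb toward lower coordinates. One of these, chr4:127666599-127667371, was given a CpG island and had 1.00 in OPC and 5.04 in OL. The OPC-only region chr4:127718419-127718726, 220 kb from the Hmgb4 region, had 9 and 1.88. On the other side, chr4:128128139-128128804 had 6.70 and 5.58 and was called in OPC only. How many of the 11 lie within Csmd2 was not determined, because no mm9 annotation was used. The count of 0 for Csmd2 is therefore a count of assignments and does not show that Nkx2.2 is absent from the gene.

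**Figure D3:**
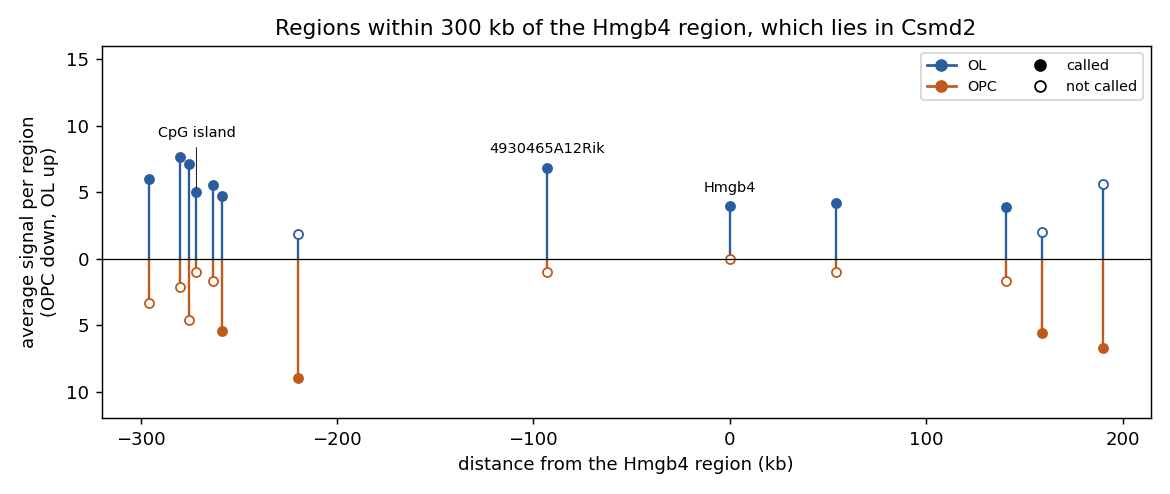
Average signal of the 13 regions within 300 kb of the Hmgb4 region against distance from it in kb, with OL upward and OPC downward and open markers for regions not called. Only the Hmgb4 region is placed within Csmd2 by gene order, and a group of 6 regions, one with a CpG island, lies 258 to 296 kb to its left.

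By number of regions Csmd1 was among the first genes of the table. Only 3 of 14473 named genes had more, namely Opcml (46), an IgLON adhesion gene, Tnr (35), the tenascin-R gene, and Sox6 (31), a SoxD factor gene, and Pde4d, a cAMP phosphodiesterase gene, also had 29. Next below were Nlgn1 with 27 and A2bp1, the splicing regulator also called Rbfox1, with 26. The median gene had 2. Csmd3, with 6, was passed by 679 genes and tied with 306. Long genes offer more room for regions. Per Mb up to the farthest region in the gene, Csmd1 had 17.7, below 39.3 for Opcml, 99.4 for Tnr, 46.7 for Sox6 and 23.3 for Pde4d. These genes were picked for their number of regions, and the farthest regions of Tnr and Sox6 lay only 342 and 557 kb in. Among the 25 other genes with a region over 1000 kb into the gene, the values ran from 1.28 to 39.3 per Mb.

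Beside these genes, fewer of the Csmd1 regions were called in OPC: 7 of 29, against 19 of 46 for Opcml, 15 of 35 for Tnr, 17 of 31 for Sox6 and 10 of 29 for Pde4d. The median log2 ratio was 0.84 for Opcml, 1.18 for Tnr, 0.57 for Sox6 and 0.68 for Pde4d. Of the 293 genes with 10 or more regions, 50 had a higher median than Csmd1 and 51 a lower share of OPC calls, so the gene lies toward the OL side of this group without being at its edge. The 25 other genes with a region over 1000 kb into the gene had 3 to 46 regions, and the median of their medians was 0.89.

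**Figure D4:**
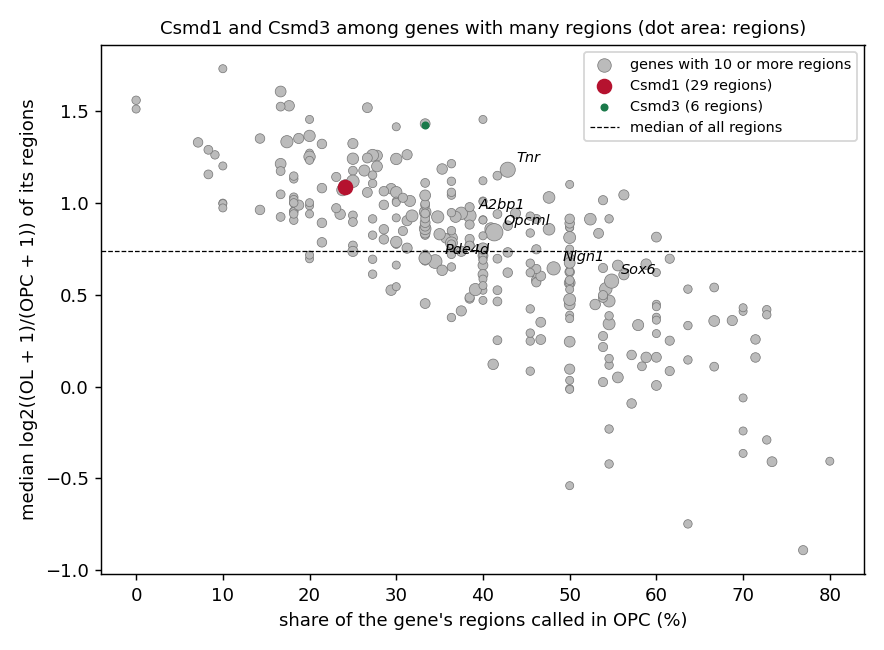
Share of a gene's regions called in OPC (percent) against the median log2 ratio of its regions, for the 293 genes with 10 or more regions, with dot area by number of regions. Csmd1, at 24.1% and 1.09, and Csmd3, at 33.3% and 1.42 from only 6 regions, lie above the dashed median of all regions, 0.74.

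Most Csmd regions, 31 of 35, lay over 100 kb into the gene, so the nearest class for comparison is the 4633 other regions of that kind. Of the 31, 22.6% (9.59 to 41.1%) were called in OPC and 93.5% (78.6 to 99.2%) in OL. In the other 4633 these shares were 37.9% and 83.7%. The median log2 ratio was 1.09 against 0.86, and 54.8% against 43.8% had a ratio of at least 1. Each interval includes the share of the larger class, but this is no test. The intervals take the regions as independent, although all come from Csmd1 and Csmd3 and were chosen by the same calls. They cover counting error over regions only, and the differences were not tested. CpG islands were given to 0 of the 31 and to 0.583% of the others. Median region length was 561 bp against 564.

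The genes whose share of OPC calls and median log2 ratio lay nearest to those of Csmd1, among genes with 10 or more regions, were Arid1b, a chromatin remodeller gene (5 of 21 called in OPC, median 1.07), Syn3, a synapsin gene (6 of 24, 1.12), Ptprj, a receptor phosphatase gene (3 of 13, 1.14), Rabgap1l (3 of 14, 1.08) and Cntnap2, a neurexin family gene (4 of 15, 1.06). Among the 5 nearest to Csmd3 were Negr1, an IgLON gene (5 of 15, 1.43), Plekha5 (3 of 10, 1.42), D430041D05Rik (4 of 10, 1.46) and Dlg2, a synaptic scaffold gene (4 of 15, 1.52). Likeness is the distance in these 2 measures, each divided by its SD over the 293 genes, and the 6 regions of Csmd3 fix its place only loosely.

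Of 41 other genes for complement components, receptors and regulators, 18 had a region; an OPC call was made at 8 of the 41 and an OL call at 16. Among the 21900 protein-coding genes of the RefSeq table the shares were 56.7% with a region, 33.0% with an OPC call and 54.0% with an OL call, and neither set is matched for gene length. The 27 regions of the list had a median log2 ratio of 0.36, and 9 of them, or 33.3%, had a ratio of at least 1, near the 37.5% of all regions. Masp1, a protease of the lectin pathway, had the most, 5 regions with a median of 0.04, followed by Hc, which encodes C5, with 4 and 1.2. Next came 5 genes tied at 2 regions. Their medians were 0.56 for Cd59a, an inhibitor of the membrane attack complex, -0.06 for Cfd, which encodes factor D, and 0.37 for Srpx2. The receptor gene Cr2 and the regulator gene Cr1l share the same 2 regions, so their median of 0.25 is a single value. Csmd1 alone had more regions, 29, than this list.

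Other genes with CUB or sushi domains had a region at 29 of 36. OPC calls were made at 19 of the 36 genes, and 28 had an OL call. Among protein-coding genes, not matched for length, 56.7% had a region, 33.0% an OPC call and 54.0% an OL call. The 92 regions of the CUB or sushi genes had a median log2 ratio of 0.69, and 41.3% were called in OPC. Both are near the 0.74 and 38.6% of all regions. Nrp1, a semaphorin and VEGF receptor gene, had 8 regions, 2 of them called in OPC, with a median of 1.22. Sez6, whose product has the CUB and sushi layout of the Csmd proteins in smaller form, also had 8, 3 called in OPC, with a median of 1.00 and up to 18.5 in OPC and 36.8 in OL. The next 4 genes were tied at 6 regions. Their medians were 0.24 for Bcan, the brevican gene, 0.49 for Cubn, the cubilin gene, 0.96 for Kremen1, a Wnt pathway gene, and 0.39 for Tll2, a metalloprotease gene. Among 50 other very long genes of the nervous system 47 had a region, beside 56.7% of protein-coding genes. The median of the 47 was 12 regions, and 1 gene, Opcml, was above Csmd1. Next in that list were Nlgn1, a neuroligin gene, with 27 regions and a median log2 ratio of 0.64, and, tied at 22, Auts2 with 0.84 and the glypican gene Gpc6 with 0.86. Of the 603 regions of these long genes 40.6% were called in OPC, and their median log2 ratio was 0.80, beside 38.6% and 0.74 for all regions.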

How the data were processed

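The data are 1 deposited table of merged Nkx2.2 regions with the authors' average signal and highest signal (coverage scale, not otherwise defined) for the OPC and the OL library, and 1 or 0 for a call in each. The submitters' processing notes list BWA, MACS 1.4.2 and build mm9 without roles. How the threshold, the input and the scaling of the libraries were handled is not given in the sources used here. Intervals were called per library and merged, per the file headers. Coordinates and distances are those of the deposited table. No source states if starts are 0- or 1-based.

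Regions naming Csmd1, Csmd2 or Csmd3 were taken with no filter on signal. The log2 ratio used a pseudocount of 1, and ratios of 1 and -1 served as thresholds, with Python 3.11.15, pandas 2.3.3 and scipy 1.17.1. The calculation was tested on simulated shifts. Named regions are, per gene, those with the highest signal in each library, the largest and smallest ratio, and the nearest and farthest from the start. Other named genes are the 3 of each list with the most regions (with ties), those next in number of regions, and the 5 most alike, of which 1 is not reported here. Regions added outside this rule were chosen after their values were seen. The genes and lists were chosen with earlier results of these data known. Older symbols were matched through RefSeq names of GRCm38.p6. No sequence is shown.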

Additional observations from a re-analysis of the deposited data

How the results depend on the processing

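Alternatives changed the sizes but not the sign of the medians of Csmd1 and Csmd3, and Csmd2 has no assigned regions and so no value under any of them. For Csmd1 the median log2 ratio of 1.09 became 1.74 with the highest signal in place of the average, 0.64 with a pseudocount of 5, 0.85 after subtracting the median of regions called in both (0.24), and 0.35 after subtracting that of all regions (0.74). The count of 19 of 35 regions at 1 or more rose to 24 with the highest signal, 24 with a pseudocount of 0.5 and 27 with a threshold of 0.5. It was 15 after scaling on regions called in both, and fell to 7 with a pseudocount of 5 and 10 after scaling on all regions. Among only the 18 regions above the median mean signal of all regions it was 10, out of a smaller total. The count of 1 at -1 or less became 2 with the highest signal, 0 with a pseudocount of 5, 0 above the median signal, 6 after scaling on all regions, and 2 with a threshold of 0.5. The share of all regions under each alternative is not given, so these counts cannot be set beside 37.5% and 7.03%. A pseudocount of 0.5 gave a Csmd1 median of 1.22, and keeping only regions inside the gene left both counts at 19 and 1. Csmd3 stayed between 0.68 and 1.78, over 6 regions. Which scaling is right cannot be read from the table, and depth is unknown, so weak OPC signal cannot be told from background. No paired analysis was possible because each state has 1 library.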
